A study of Gallus gallus with 12 samples.

Results

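Rhombomere 1 (r1) was compared with rhombomere 2 (r2) in the hindbrain neural tube of the chick embryo. The 4 arrays were chosen by their source names, r1 sets 1 and 2 and r2 sets 1 and 2, out of 12 arrays that also cover the midbrain (m) and r3 to r5. Each array carried cDNA from 1 pool of tissue, and the pools of a region were collected on different occasions and are the biological replicates (n = 2 pools each). All embryos were untreated and of stage HH10 by the sample labels, with the neural tube freed from ectoderm and mesoderm by Dispase for 15 min and by tungsten needles. The paper gives a slightly later stage and a shorter Dispase step. The cuts followed the visible landmarks of the neuromeres, so that a pool holds whatever cells lay between 2 cuts, and neither the sex nor the number of embryos in a pool is given in the sources used here.

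The hindbrain is divided along its length into rhombomeres, segments whose cells mix little with those of their neighbours. At the front of r1 lies the isthmus, the boundary with the midbrain, whose cells secrete FGF8 and act as an organiser for the midbrain and r1. The Hox genes, which give the segments behind their identity, begin at the border between r1 and r2, where HOXA2 has the most anterior limit of the family. Retinoic acid, made by the mesoderm beside the trunk and posterior hindbrain, is removed farther forward by the CYP26 enzymes.

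Values are MAS5 signals, an intensity for each probe set on a linear scale, brought to a common array median of 5.90. A scaled signal under 1.03 was raised to this floor before log2 was taken. Fold changes are r1 over r2 on the log2 scale with their standard error (SE), and near the floor they understate the difference. A gene is called when its limma p, adjusted over 21731 probe sets, is under 0.05, and where several probe sets report a gene, the values are those of the brightest on average. The spread between pools was estimated in 2 ways, as that of all 12 arrays, on which every call rests unless said otherwise, and as that of the 6 arrays of m, r1 and r2 alone.

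The 4 arrays of r1 and r2 were alike in the signal of control transcripts. The 3′/5′ ratio of GAPDH, which rises where RNA is broken or the copy is short, was 1.04 and 1.48 in r1 against 1.07 and 1.40 in r2, and that of beta-actin was 8.58 and 13.3 in r1 against 9.53 and 13.3 in r2. In r3 these ratios were 41.7 and 42.9 for GAPDH and 181 and 70.0 for beta-actin. The array median before scaling was 9.67 and 5.01 in r1 and 8.50 and 8.75 in r2. The 2 pools of r1 differed by a median of 0.268 (absolute log2) and those of r2 by 0.26, against 0.7 for the pools of r3, which enter the shared spread. The means of r1 and r2 differed by a median of 0.248 and by over 2-fold in 9.49% of probe sets, against 11.9% between the r1 pools and 11.1% between the r2 pools. A mean of 2 pools varies less than 1 pool, so that these values are not on equal terms.

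Of 21731 probe sets, 20 were higher in r1 (0.092%) and 43 were lower in r1 (0.198%). At an unadjusted p under 0.05 they were 483 (2.22%) and 489 (2.25%), together 972. Both shares together lie under the 0.05 that unchanged probe sets would give, so that the unadjusted counts show no excess. In all 63 (0.29%) the r1 arrays did not overlap the r2 arrays, which was so for 26.6% of all probe sets with r1 above and 15.6% with r1 below. The calls were made on the same arrays, so that this lack of overlap is no separate evidence for them. Counted as genes, 15 of 10001 were higher in r1 (0.15%) and 26 were lower in r1 (0.26%), 0.41% together, with absolute log2 fold changes of 1.00 or more and a median of 2.41. Without both r3 arrays 82 probe sets were higher (0.377%) and 109 lower in r1 (0.502%), and with the spread of m, r1 and r2 alone 246 were higher (1.13%) and 178 lower (0.819%). All 41 genes were also called under both of these. With n = 2 each call leans on single arrays: leaving out any 1 of the 4 left 1 to 4 probe sets higher and 6 to 15 lower in r1, fewest without r2 set 1.

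**Figure D1:**
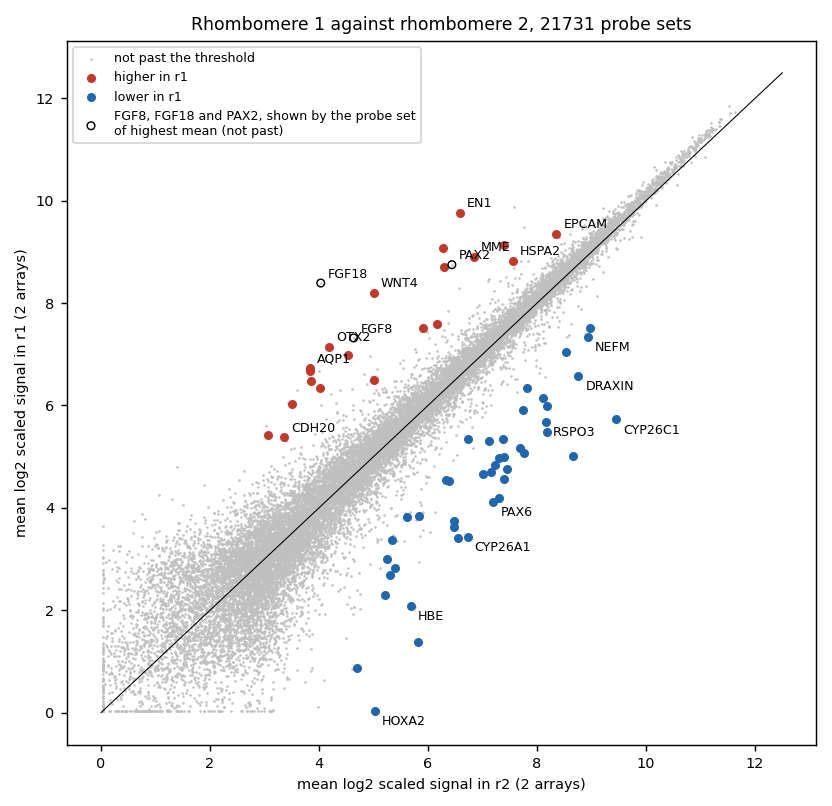
Mean log2 scaled signal of each of 21731 probe sets in r1 (vertical axis) and r2 (horizontal axis), with the 20 probe sets higher in r1 in red and the 43 lower in r1 in blue. Most points lie along the diagonal, HOXA2 lies at the floor in r1, and FGF8, FGF18 and PAX2 (open circles) lie well above the diagonal without passing the threshold by the probe set shown.

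The FGF ligands of the isthmus had several-fold higher signals in r1 in both pools, but whether they were called depended on the spread used. FGF8, the organiser ligand, had scaled signals of 177 and 144 in r1, against 25.9 and 23.8 in r2, a log2 fold change of 2.68 (SE 0.72). Both r1 pools lay above both r2 pools and above the midbrain (61.6 and 62.0), so that this marker of r1 was highest there. Its adjusted p was 0.321 over all arrays, 0.0823 without r3 and 1.33e-05 with the spread of m, r1 and r2. FGF18, a second ligand of the same family made at the isthmus, had 321 and 351 in r1, against 16.5 and 16.2 in r2, and the highest log2 fold change of all genes (4.36, SE 0.90). It was at 362 and 375 in m, close to the r1 pools, whereas FGF8 was lower in m than in r1. Its adjusted p was 0.0998 over all arrays and 5.95e-08 with the spread of m, r1 and r2, and its r3 pools were at 0.349 and 14.8, on either side of the floor.

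Genes induced by FGF signalling were next. IL17RD, a membrane inhibitor of the FGF receptor, had 170 and 178 in r1 and 67.9 and 59.1 in r2 (log2 fold change 1.46, adjusted p 0.0546, or 2.05e-04 with the spread of m, r1 and r2). DUSP6, a phosphatase that turns off ERK, had 335 and 351 in r1 and 171 and 150 in r2 (1.10, adjusted p 0.232, or 7.19e-04). SPRY2, another feedback inhibitor, had 290 and 296 in r1 and 175 and 196 in r2 (0.66, adjusted p 0.87, or 0.0145). None of the 3 passed over all arrays, and in each of them both r1 pools were above both r2 pools, which held for 28.9% of all genes. These 3 were named after their values were seen. Among the receptors, FGFR3 and FGFR2 lay the other way. FGFR3 had 167 and 158 in r1 and 381 and 370 in r2 (−1.21, adjusted p 0.267, or 1.89e-04). FGFR2 had 144 and 127 in r1 and 244 and 255 in r2 (−0.88, adjusted p 0.0939, or 0.0033). Of 33 genes on the list of FGF ligands, receptors and response genes, 0 were called over all arrays, and 5 were higher and 3 lower in r1 with the spread of m, r1 and r2 (1.65% and 1.14% of all genes). In 15 of the 33 both r1 pools were above and in 7 below both r2 pools, beside 28.9% and 14.5% of all genes. The list's median log2 fold change was 0.015, beside 0.084 for all genes.

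The transcription factors of the mid-hindbrain territory lay with the ligands. EN1, a homeobox gene needed for midbrain and cerebellum, had 842 and 898 in r1, against 89.5 and 103 in r2 (3.18, SE 0.55, adjusted p 0.0392). PAX2, a paired-box gene that acts before EN1, had 394 and 470 in r1 and 83.2 and 90.2 in r2 (2.31, SE 0.69, adjusted p 0.438, or 5.25e-06 with the spread of m, r1 and r2). Its second probe set gave 411 and 423 in r1 and 71.9 and 84.5 in r2, and was called (2.42, SE 0.31, adjusted p 0.00659). In m, EN1 had 1162 and 1193, above both r1 pools, and PAX2 had 363 and 395, close to them.

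OTX2, the homeobox gene of forebrain and midbrain whose posterior limit is the isthmus, had 138.5 and 144.9 in r1, against 17.4 and 18.9 in r2 (2.96, SE 0.47, adjusted p 0.0203). It was several-fold higher in m, at 899 and 800, and its second probe set gave 47.9 and 49.1 in r1 and 6.65 and 9.94 in r2 without a call (2.58, adjusted p 0.433). Midbrain cells within the r1 pools were not tested as a part of this difference. GBX2, the homeobox gene that meets OTX2 at the isthmus from behind, had 1175 and 1350 in r1 and 891 and 1049 in r2, a difference that did not pass with either spread (0.38, SE 0.25, adjusted p 1 and 0.311). SP8, a zinc finger gene of the isthmus, had 294 and 313 in r1 and 156 and 142 in r2 (1.03, adjusted p 0.74, or 6.84e-04). Of 13 midbrain and isthmus genes kept, 2 were higher and 0 lower in r1 (0.15% and 0.26% of all genes). With the spread of m, r1 and r2 these counts were 6 and 0 (1.65% and 1.14% of all genes). In 9 of the 13 both r1 pools were above both r2 pools and in 1 below, beside 28.9% and 14.5% of all genes, and the median was 1.03.

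HOXA2 stood at the other end. Its scaled signals were 0.149 and 0.831 in r1, both under the floor, against 24.6 and 42.8 in r2, so that it was at least 31.6-fold higher in r2 (log2 fold change against the floor −4.98, SE 0.41, adjusted p 2.01e-04). This bound moves with the floor, and with a floor at the 40th percentile it was at least 8.32-fold (−3.06). The midbrain was under the floor as well (0.644 and 0.394), while r3, r4 and r5 held 79.9 to 152, above both r2 pools. HOXA2 was the only gene called among the 12 Hox genes kept of 28 named by the annotation, beside 0.41% of all genes. By the probe set shown for each, the highest scaled signal of the 11 others on any r1 or r2 array was 8.20. HOXB1, whose domain is r4, had 2.34 and 0.401 in r1 and 2.02 and 3.94 in r2, with overlapping pools (adjusted p 1), against 225 and 367 in r4. Its other probe set gave 13.2 and 2.63 in r1 and 12.9 and 3.92 in r2, also with overlap. HOXB3, which begins farther back, was under the floor in both r1 pools (0.0636 and 0.296) and had 2.05 and 1.23 in r2, against 60.1 and 44.5 in r5. Hox cofactors were measured by 9 genes, of which 0 were called. With the spread of m, r1 and r2, 1 was lower in r1, beside 1.14% of all genes. This was MEIS2, a homeobox partner of Hox proteins, with 71.0 and 49.5 in r1 and 104 and 111 in r2 (−0.85, adjusted p 1, or 0.046).

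**Figure D2:**
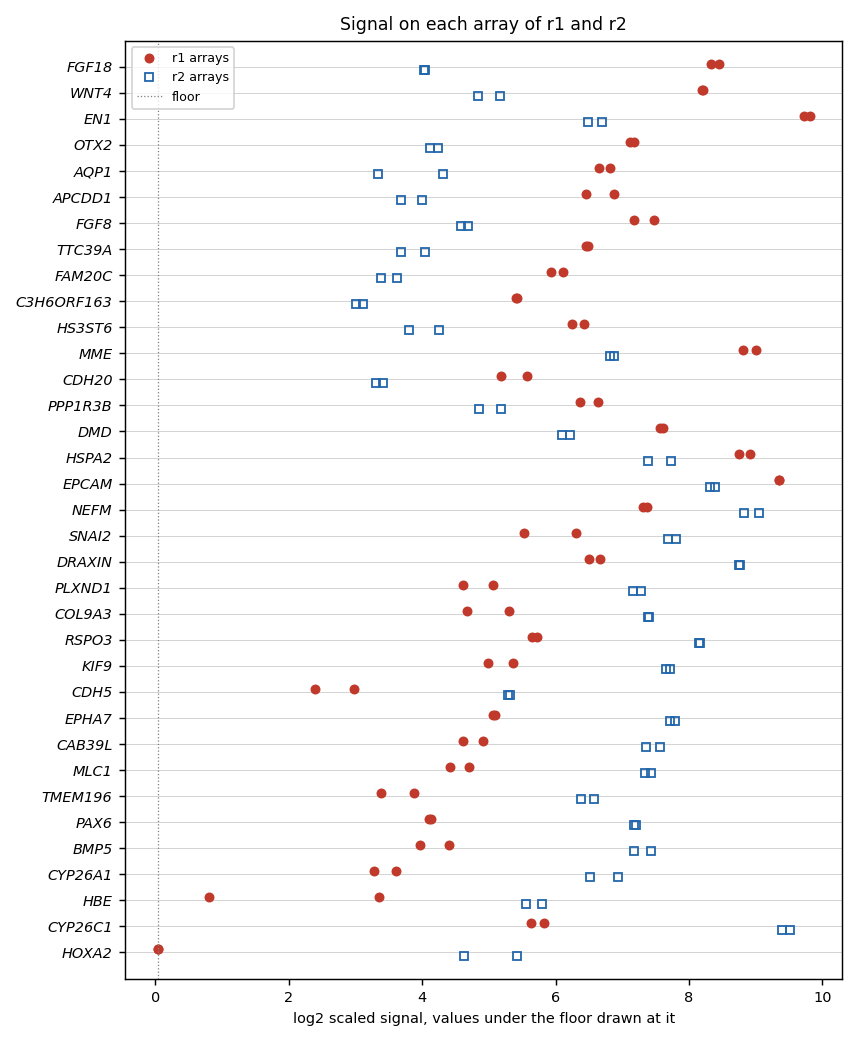
Log2 scaled signal on each r1 array (filled circles) and each r2 array (open squares) for the genes named here by their rank or list and for FGF8 and FGF18, ordered by fold change, with the floor as a dotted line. In every gene drawn the 2 r1 arrays stand clear of the 2 r2 arrays, and HBE has the widest gap between its r1 pools.

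Of the enzymes that break down retinoic acid, 2 were far lower in r1 than in r2. CYP26C1 had 49.4 and 56.9 in r1, against 674 and 731 in r2, and the lowest adjusted p of the called genes (−3.73, SE 0.20, adjusted p 6.72e-06). CYP26A1 had 12.2 and 9.66 in r1, against 91.4 and 122 in r2 (−3.28, SE 0.43, adjusted p 0.00666). Both were also low in m, at 54.6 and 40.5 for CYP26C1 and 8.89 and 9.03 for CYP26A1, so that the step lay at the border of r1 and r2. The remaining enzyme, CYP26B1, had 14.3 and 8.80 in r1 and 27.0 and 21.0 in r2, without overlap and without a call. Other genes of the pathway differed less. DHRS3, which reduces retinal back to retinol and is induced by retinoic acid, had 14.7 and 14.2 in r1 and 32.0 and 41.4 in r2 (−1.33, adjusted p 0.128, or 0.0401 with the spread of m, r1 and r2). NR2F2, a nuclear receptor of the COUP family, had 92.1 and 89.9 in r1 and 190 and 205 in r2 (−1.12, adjusted p 0.168, or 0.00181). RBP5, a retinol-binding protein, lay the other way with 346 and 300.3 in r1 and 175 and 179 in r2 (0.86, adjusted p 0.368, or 0.00252). Of 18 genes of the retinoic acid pathway 0 were higher and 2 lower in r1 (0.15% and 0.26% of all genes). With the spread of m, r1 and r2 these counts were 1 and 4 (1.65% and 1.14% of all genes). In 10 both r1 pools were below both r2 pools and in 4 above, beside 14.5% and 28.9% of all genes, and the median was −0.47.

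PAX6, a homeobox gene of the ventricular zone that is also essential for the eye, had 17.1 and 17.6 in r1, against 144 and 148 in r2 (−3.07, SE 0.21, adjusted p 4.44e-05). It was lower still in m (6.01 and 6.97) and higher in r3 to r5 (446 to 1000), so that r1 and r2 lay between the midbrain and the posterior segments. FST, which encodes the activin and BMP antagonist follistatin and is known in some rhombomeres of the chick, had 31.9 and 40.05 in r1 and 114 and 113 in r2 (−1.67, adjusted p 0.132, or 0.00126). None of 13 genes known for r3, r4 or r5 was called, with 3 genes that had both r1 pools above and 5 that had them below both r2 pools, beside 28.9% and 14.5% of all genes. IRX1, an Iroquois homeobox gene, had 567 and 696 in r1 and 298 and 383 in r2 (0.90, adjusted p 0.273, or 0.00924).

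Eph receptors and ephrins, by which cells of neighbouring segments repel each other, gave 1 call among 13 genes, beside 0.41% of all genes. EPHA7 had 34.0 and 33.5 in r1, against 222 and 210 in r2 (−2.68, SE 0.28, adjusted p 0.00117). Its level in r2 was like that in r3 to r5 (180 to 340), and in m it was 18.1 and 14.2. EPHA3 had 7.69 and 2.15 in r1 and 28.2 and 25.7 in r2 (−2.73, adjusted p 0.0749, or 0.0463), and EPHA5 had 34.6 and 27.3 in r1 and 67.5 and 57.8 in r2 (−1.02, adjusted p 0.412, or 0.0495). The other probe set of EPHA5 was dim and overlapped, with 6.36 and 9.87 in r1 and 4.79 and 7.98 in r2 (0.36). The median of the list was −0.50, and 2 genes had both r1 pools above and 5 both r1 pools below those of r2, beside 28.9% and 14.5% of all genes.

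Wnt signalling genes changed in both directions. WNT4, a ligand, had 297 and 293 in r1, against 28.5 and 35.9 in r2 (3.20, SE 0.33, adjusted p 0.00117), and 789 and 798 in m. APCDD1, a membrane inhibitor of Wnt signalling, had 117 and 88.1 in r1, against 15.9 and 12.8 in r2 (2.83, SE 0.34, adjusted p 0.00424), and 708 and 738 in m. Its other probe set, near the floor, was not called, with 6.75 and 0.919 in r1 and 6.13 and 3.06 in r2 (−0.72, adjusted p 1). By the probe set called, r1 lay between m and r2 in both genes. Of 12 Wnt ligands kept, 6 had both r1 pools above both r2 pools and 1 had them below, beside 28.9% and 14.5% of all genes. The ligands named next were chosen because they passed with the spread of m, r1 and r2 (adjusted p 0.000534 to 0.0144), and none of them passed over all arrays (0.181 to 1). They were WNT11, WNT2B, WNT3A and WNT5B, with log2 fold changes of 2.00, 1.53, 1.39 and 1.09. A second probe set of WNT2B gave −0.81, and that of WNT3A gave 0.84 and did not pass with either spread.

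RSPO3, which encodes an R-spondin that strengthens Wnt signals, had 52.7 and 50.1 in r1, against 288 and 284 in r2 (−2.48, SE 0.24, adjusted p 9.17e-04). Its second probe set was also called (−2.69, adjusted p 0.047). RSPO3 was lower in r1 than in m (106 and 99.3), so that r1 was the lowest of the 6 regions. DRAXIN, a secreted repellent of axons and crest cells that also blocks Wnt, had 90.5 and 101 in r1, against 430 and 432 in r2 (−2.17, SE 0.17, adjusted p 2.01e-04). Of 45 genes on the Wnt list, which does not hold APCDD1, 1 was higher and 2 lower in r1 (0.15% and 0.26% of all genes). With the spread of m, r1 and r2 these counts were 6 and 2 (1.65% and 1.14% of all genes). Both r1 pools were above in 19 and below in 9, beside 28.9% and 14.5% of all genes, and the median was 0.16.

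Among BMP and TGF-beta genes BMP5 was called alone of 33, beside 0.41% of all genes. This ligand had 15.7 and 21.2 in r1, against 144 and 172 in r2 (−3.11, SE 0.39, adjusted p 0.00571), and r2 was the region where it was highest, with 23.7 to 84.6 in r3 to r5. CHRD, the BMP antagonist chordin of the notochord and organiser, had 86.3 and 74.3 in r1 and 24.4 and 24.5 in r2 (1.71, adjusted p 0.0714, or 5.62e-04). TBXT, the brachyury gene of the notochord, had 42.5 and 50.3 in r1 and 14.7 and 13.0 in r2 (1.74, adjusted p 1, or 0.00274). Of the 33 BMP and TGF-beta genes, 3 were higher and 5 lower in r1 with the spread of m, r1 and r2 (1.65% and 1.14% of all genes). Both r1 pools were above both r2 pools in 8 and below in 13, beside 28.9% and 14.5% of all genes, and the median was −0.018.

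The 2 called genes of the neural crest, the migratory cells that leave the dorsal neural tube, were lower in r1. SNAI2, a transcription factor of crest cells as they leave, had 46.0 and 78.9 in r1, against 205 and 224 in r2 (−1.83, SE 0.26, adjusted p 0.0103). SOX10, which crest cells keep while migrating, had 109 and 131 in r1 and 233 and 273 in r2 (−1.08, adjusted p 0.138, or 0.00459), and TFAP2B had 103 and 88.8 in r1 and 192 and 177 in r2 (−0.95, adjusted p 0.293, or 0.00766). Of 27 crest genes 0 were higher and 2 lower in r1 (SNAI2 and DRAXIN), beside 0.15% and 0.26% of all genes. With the spread of m, r1 and r2 these counts were 1 and 4 (1.65% and 1.14% of all genes). The gene higher in r1 was NRP1, a receptor for semaphorins and VEGF, with 76.6 and 77.2 in r1 and 39.8 and 32.4 in r2 (1.10, adjusted p 0.581, or 0.00638). In 17 of the 27 both r1 pools were below both r2 pools and in 6 above, beside 14.5% and 28.9% of all genes, with a median of −0.35. The summed scaled signal of the list was 2555 and 2528 in r1, against 3509 and 3577 in r2. In these bulk pools fewer cells of a type and less RNA in each cell cannot be told apart.

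Neuronal genes gave 1 call, beside 0.41% of all genes. NEFM, the medium neurofilament subunit of young neurons, had 159 and 166 in r1, against 453 and 527 in r2 (−1.59, SE 0.27, adjusted p 0.0371), and its other probe set was called too (−1.79, adjusted p 0.0383). It was lower again in m (27.4 and 40.1). NEFL, the light subunit, had 46.6 and 58.3 in r1 and 101 and 91.2 in r2, and NHLH1, a transcription factor of newborn neurons, had 25.5 and 25.1 in r1 and 58.1 and 49.8 in r2. Neither was called over all arrays (adjusted p 0.869 and 0.359), and both were with the spread of m, r1 and r2 (0.046 and 0.0401). The other 2 probe sets of NHLH1, both dim, had fold changes of the opposite sign (1.75 and 0.96, adjusted p 0.761 and 1). Of 25 neuronal genes 12 had both r1 pools below both r2 pools and 3 had them above, beside 14.5% and 28.9% of all genes. Progenitor and Notch genes had 0 calls of 28, with a median of 0.11. With the spread of m, r1 and r2, 3 of them were higher and 0 lower in r1 (1.65% and 1.14% of all genes). Both r1 pools were above both r2 pools in 10 and below in 4, beside 28.9% and 14.5% of all genes.

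Of the blood and endothelial genes, an embryonic globin and a cadherin of vessels were called lower in r1. HBE, the globin, had 10.2 and 1.75 in r1, against 47.2 and 55.8 in r2 (−3.60, SE 0.64, adjusted p 0.0419), with the r1 pools far apart from each other. CDH5, the cadherin of endothelial junctions, had 7.87 and 5.23 in r1, against 39.0 and 40.03 in r2 (−2.62, SE 0.46, adjusted p 0.0419). In 17 of 19 genes of the list both r1 pools were below both r2 pools, and 0 lay above, beside 14.5% and 28.9% of all genes. Its median was −1.39. Over all arrays 0 genes were higher and 2 lower in r1 (0.15% and 0.26% of all genes), or 0 and 5 with the spread of m, r1 and r2 (1.65% and 1.14%), the others being HBZ, FLT4 and EGFL7. The other probe set of FLT4 was dim and overlapped, with 10.2 and 3.61 in r1 and 2.04 and 4.63 in r2 (0.98). The summed signal was 358 and 366 in r1, against 773 and 838 in r2, while m had 224 and 253 and r4 had 893 and 982. KDR, a receptor that defines endothelium, was under the floor in r1 (0.568 and 0.235) and at 1.28 and 7.31 in r2.

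Several called genes outside that list are known in vessels. PLXND1, a semaphorin receptor of endothelium and neurons, had 33.5 and 24.5 in r1, against 156 and 143 in r2 (−2.38, SE 0.31, adjusted p 0.00659). HHEX, a homeobox gene of early endothelium and endoderm, had 23.5 and 22.8 in r1, against 95.5 and 72.9 in r2 (−1.85, SE 0.31, adjusted p 0.029), and was named after its values were seen. The part of vessels or blood in these differences was not tested.

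Lists for the tissues that adjoin the neural tube were also summed. For head mesoderm, somite and notochord (17 genes, 0 called, 2 higher and 3 lower with the spread of m, r1 and r2, median −0.49) the sum was 437 and 448 in r1, against 585 and 603 in r2. COL3A1, a collagen of mesenchyme, had 58.7 and 58.8 in r1 and 141 and 123 in r2 (−1.16, adjusted p 0.13, or 0.00187), and its 4 other probe sets had fold changes of both signs. The 2 genes higher in r1 were CHRD and TBXT of the notochord, given above. In 8 genes both r1 pools were below and in 3 above those of r2, beside 14.5% and 28.9% of all genes. With the spread of m, r1 and r2, 1.65% of all genes were higher and 1.14% lower in r1. Of 18 genes of surface ectoderm and otic placode 1 was higher and 0 lower in r1 (0.15% and 0.26% of all genes), with a median of 0.20. Their sum was higher in r1, 2186 and 2357 against 1463 and 1555 in r2. Without PAX2 and EPCAM, which carried most of this difference, the sum was 1139 and 1232 in r1 and 1061 and 1131 in r2. EPCAM, the called gene of the list, is an adhesion protein of epithelia and had 652 and 655 in r1, against 319 and 334 in r2 (1.00, SE 0.18, adjusted p 0.0467). Its other probe sets were not called (0.74 and 0.72). KRT14, a keratin of skin, had 16.1 and 26.6 in r1 and 6.12 and 4.26 in r2 (2.02, adjusted p 0.505, or 0.0484). The part of ectoderm and mesoderm in the differences was not tested.

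**Figure D3:**
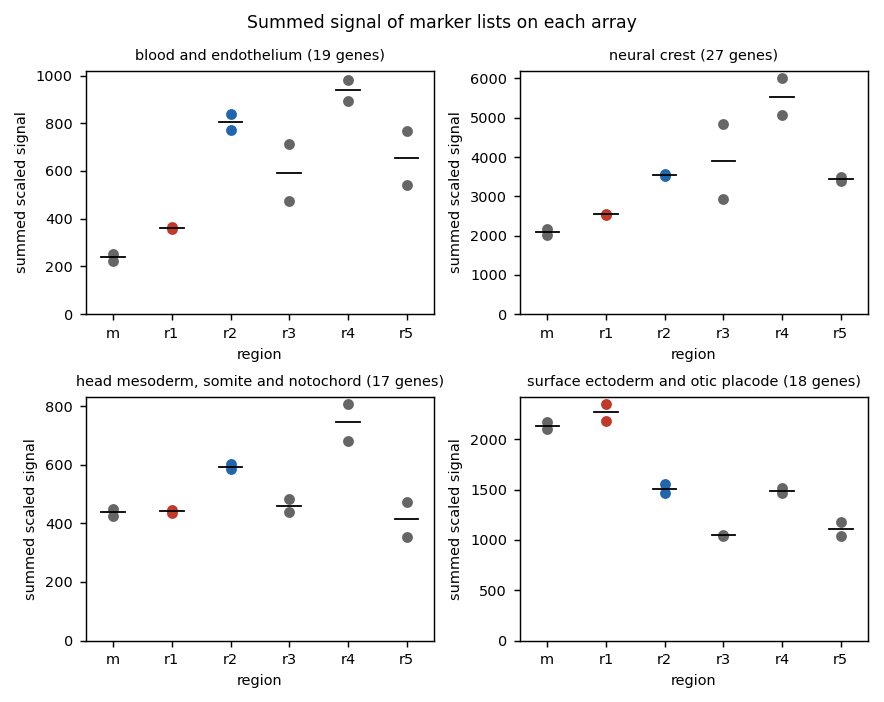
Summed scaled signal (vertical axis, from 0) of 4 marker lists on each of the 12 arrays, by region from m to r5, with r1 in red, r2 in blue and the mean of 2 pools as a bar. The sums of blood and endothelium, neural crest and head mesoderm lie lower in r1 than in r2. That of surface ectoderm and otic placode lies higher, mostly through PAX2 and EPCAM. Without these 2 genes it was 1139 and 1232 in r1 and 1061 and 1131 in r2. The 2 pools of r1 and of r2 lie close together, while the pools of r3 lie apart in neural crest (4852 and 2944).

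Of 28 cell adhesion genes 1 was higher (CDH20) and 1 lower (CDH5) in r1, beside 0.15% and 0.26% of all genes. With the spread of m, r1 and r2 the counts were 3 and 2 (1.65% and 1.14% of all genes). Both r1 pools were above both r2 pools in 5 of the 28 and below in 9, beside 28.9% and 14.5% of all genes. CDH20, a classical cadherin, had 36.4 and 47.3 in r1, against 10.6 and 9.90 in r2 (2.02, SE 0.33, adjusted p 0.0246), and was much higher in r5 (301 and 249.6) and r3 (176 and 93.6). Its other probe set was dim and overlapped, with 7.02 and 1.96 in r1 and 2.55 and 6.10 in r2 (−0.09). CDH11, a cadherin of mesenchyme and crest, had 15.4 and 10.5 in r1 and 41.1 and 35.5 in r2 without a call (−1.58, adjusted p 0.207), whereas its second probe set, with 7.66 and 6.61 in r1 and 43.9 and 40.7 in r2, was called (−2.57, SE 0.36, adjusted p 0.0108). COL9A3, a chain of collagen IX, had 25.4 and 39.4 in r1, against 170 and 166 in r2 (−2.41, SE 0.32, adjusted p 0.00695). The basement membrane chains COL4A1 and COL4A2 lay the other way, with 117 and 127 in r1 and 63.3 and 61.6 in r2 for COL4A1 and 226 and 277 in r1 and 115 and 130 in r2 for COL4A2 (adjusted p 0.519 and 0.141, or 0.00663 and 0.00314). Other probe sets of COL4A2 gave 1.36, 1.83 and, where dim, −0.59. The other probe set of COL4A1 was dim and overlapped (0.19). Of 56 matrix genes 0 were higher and 1 lower in r1 (0.15% and 0.26% of all genes). With the spread of m, r1 and r2 these counts were 4 and 8 (1.65% and 1.14% of all genes). Both r1 pools were above both r2 pools in 17 and below in 21, beside 28.9% and 14.5% of all genes.

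The remaining genes higher in r1 belong to no pathway listed above. AQP1, a water channel, had 112 and 100.1 in r1, against 10.1 and 19.8 in r2 (2.90, SE 0.36, adjusted p 0.00513). MME, the cell surface peptidase neprilysin, had 449 and 511 in r1, against 112 and 117 in r2 (2.06, SE 0.24, adjusted p 0.00385), by 1 of its 2 probe sets. In both genes r1 held the highest level of the 6 regions. FAM20C, a kinase of the secretory pathway, had 68.8 and 61.2 in r1, against 10.4 and 12.2 in r2 (2.52), and was as high in m (68.3 and 69.0) and r5 (69.2 and 70.7). The others were TTC39A (2.61), C3H6ORF163 (2.36), HS3ST6, which adds sulphate to heparan chains (2.31), PPP1R3B, which directs a phosphatase to glycogen (1.49), the dystrophin gene DMD (1.43) and HSPA2 of the HSP70 family (1.27), with adjusted p of 0.0104 to 0.042.

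Lower in r1 were KIF9, a kinesin, with 41.2 and 31.8 in r1, against 202 and 210 in r2 (−2.51, SE 0.31, adjusted p 0.00453), by all 3 of its probe sets. MLC1, a membrane protein known from astrocytes in mammals, had 21.2 and 26.0 in r1, against 172 and 162 in r2 (−2.83, SE 0.41, adjusted p 0.011). TMEM196, a membrane protein, had 14.7 and 10.4 in r1, against 83.0 and 95.0 in r2 (−2.84), and CAB39L, a partner of the kinase STK11, had 30.1 and 24.3 in r1, against 164 and 188 in r2 (−2.70, adjusted p 0.00117). The other 7 called genes, named after their values were seen, were CAP2, COLEC12, RASL11B, PDGFA, GSG1L, RBM24 and ACAA1, with log2 fold changes of −2.31 to −1.40. Of the 41 called genes, 20 had several probe sets, and APCDD1, CDH20 and GSG1L were the 3 in which another probe set had the opposite sign. In others, among them BMP5, CAB39L, COL9A3 and EPCAM, another probe set of the same sign was not called. PDGFA, a growth factor for mesenchyme, had 10.8 and 9.86 in r1, against 33.4 and 48.6 in r2. A further 13 called probe sets, 3 higher and 10 lower in r1, carry no single gene symbol.

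**Figure D4:**
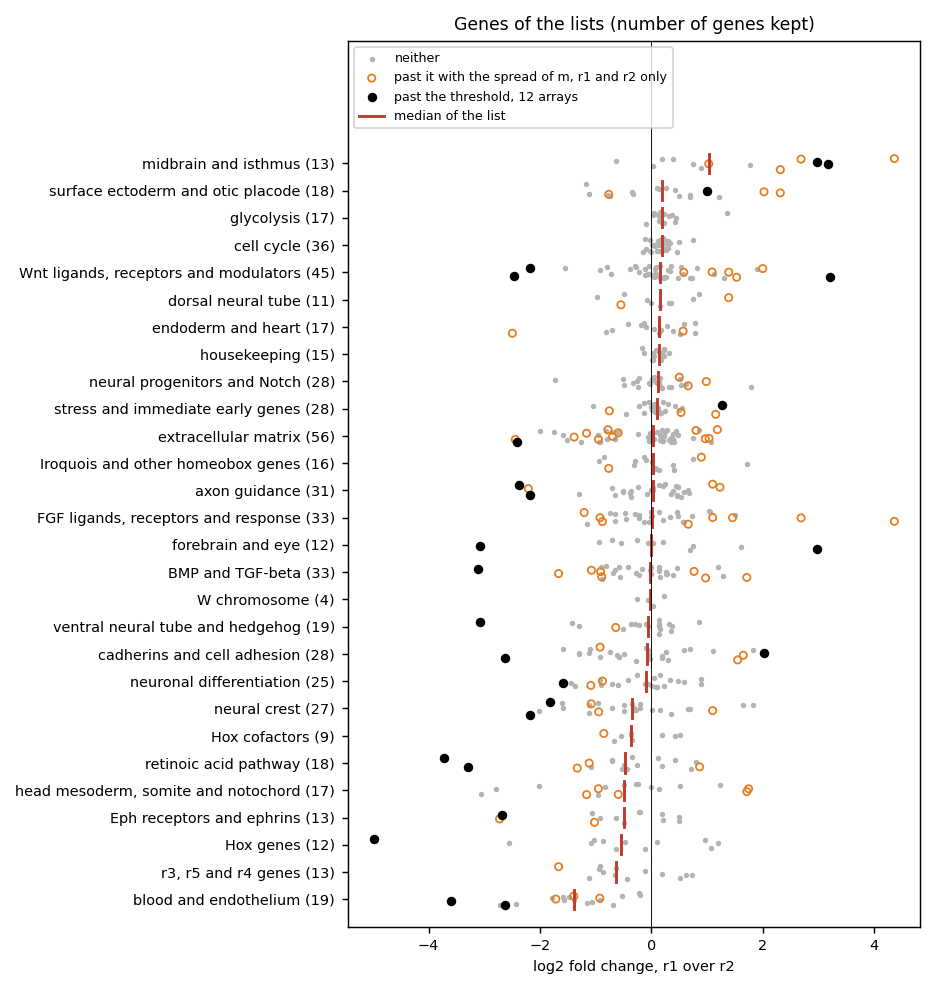
Log2 fold change of r1 over r2 (horizontal axis) for each gene of 28 lists, ordered by the list's median (red bar), with genes called over 12 arrays in black and those called only with the spread of m, r1 and r2 in orange. Midbrain and isthmus genes lie farthest to the right, with a median of 1.03, and blood and endothelial genes farthest to the left, with a median of −1.39.

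Of 36 cell cycle, 17 glycolysis and 15 housekeeping genes 0 were called with either spread. Of all genes 0.41% were called, or 1.65% higher and 1.14% lower with the spread of m, r1 and r2. At these shares 0 calls in lists of this size say little about their genes. The medians of the lists were 0.19, 0.20 and 0.13, beside 0.084 for all genes. In 18 of the cell cycle genes both r1 pools were above both r2 pools, beside 28.9% of all genes, and 0 lay below.

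The other 8 arrays did not enter the fold changes of the 41 genes, but they shared in the spread, the floor and the filter on low signals. They show where each gene stands along the axis. Of the 15 genes higher in r1, 13 were called higher in m than in r4 and r5 and 1 was called lower, CDH20, with a median log2 difference of 2.04. Of the 26 genes lower in r1, 20 were called lower in m than in r4 and r5 and 0 were called higher, with a median of −1.85. By sign alone 14 of the 15 and 1 of the 26 were higher in m, beside 5481 of all 10001 genes. Among all genes 5.08% were called higher and 4.21% lower in m, with a median of 0.077, and among probe sets 1061 were higher (4.88%) and 635 lower (2.92%). Both comparisons use the same spread, so that a gene with a small spread passes either of them more easily. The shares of all genes are therefore not on equal terms with the counts among the 41 genes. The genes higher in r1 had their highest mean in m in 8 cases, in r1 in 5 and in r5 in 2. Those lower in r1 had it in r2 in 10 cases, r3 in 5, r4 in 7 and r5 in 4. The 10 genes highest in r2 were BMP5, CAP2, CDH5, CYP26A1, HHEX, KIF9, MLC1, PLXND1, RASL11B and TMEM196. Values in r3 carry the high control ratios given above. The 3′/5′ ratio of beta-actin was also higher in r4 (35.4 and 44.7) and r5 (33.5 and 22.0) than in m (7.26 and 7.15). That of GAPDH was 7.49 and 4.03 in r4, 3.84 and 0.941 in r5, and 1.00 and 0.957 in m. The part of these ratios in the differences of m from r4 and r5 was not tested.

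**Figure D5:**
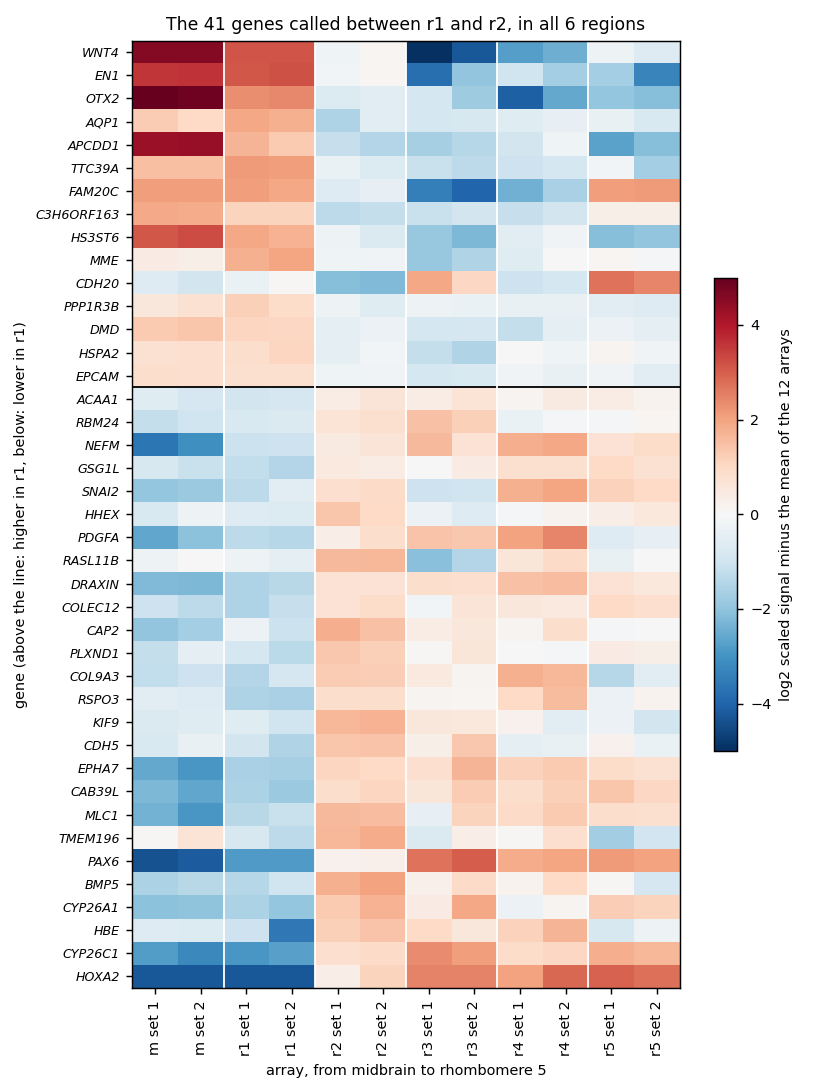
Log2 scaled signal of the 41 called genes on each of the 12 arrays, from m to r5, as the difference from the gene's mean over 12 arrays (red above, blue below), with genes higher in r1 above the line and those lower in r1 below it. Of the genes above the line 13 of 15 are also called higher in m than in r4 and r5, beside 5.08% of all genes. Of those below it 20 of 26 are called lower in m, beside 4.21% of all genes. By sign alone 14 of the 15 and 1 of the 26 lie higher in m. CDH20 and FAM20C are high again in r5.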

How the data were processed

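RNA of m and r1 to r5 was measured on Affymetrix Chicken GeneChips. The authors amplified cDNA (NuGEN Ovation V2), hybridised 12 arrays and deposited 1 MAS5 signal, a linear intensity adjusted for mismatch probes, for each of 38535 probe sets. Detection flags and Cel files were not used. Signals were expressed relative to the median of their own array, taken without the 96 control probe sets, and returned to the mean array median of 5.90. A floor was set at the 20th percentile of all scaled signals (1.03) before log2. A probe set entered the fit when some region had both of its arrays over the array median, which held for 21731, and 16747 of these carry 1 symbol of the platform annotation, for 10001 genes. Plain global scaling assumes that most genes do not differ.

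Regions were fitted with limma 3.58.1 in R 4.3.3 (lmFit, eBayes with an intensity trend, 6 residual and 6.00 prior degrees of freedom) over all 12 arrays, with r1 against r2 and m against the mean of r4 and r5 as contrasts, and adjusted by Benjamini-Hochberg. Figures were drawn with matplotlib 3.10.9. Scripts were tested on simulated data. The number of arrays limits the precision. No 2 arrays held identical values, and the set numbers were not taken to pair the arrays. Genes named were FGF8, HOXA2, OTX2 and HOXB1, the 15 highest and 15 lowest fold changes among called genes, and up to 4 called members of each of 28 lists. Where a list had no called member, the rule took up to 2 members of highest mean signal, such as FGFR3 and MEIS2. Only a part of these is given. All other genes were named after their values were seen. The segments, lists and tests were chosen with earlier results of these data known. Alternatives changed the scaling, floor, filter, variance model, block and arrays used.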

Additional observations from a re-analysis of the deposited data

How the results depend on the processing

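Against 20 probe sets higher and 43 lower in r1, no scaling gave 2 and 25, no filter 12 and 24, no intensity trend 10 and 16, and the plain analysis of variance with Benjamini-Hochberg 1 and 6 (589 and 562 unadjusted). A floor at the 40th percentile gave 40 higher, quantile normalisation 72 lower, array weights 191 and 250, only r1 and r2 106 and 118, only m, r1 and r2 246 and 178, and leaving out both r3 arrays 82 and 109. The last 3 leave the r3 arrays out. Leaving out 1 array of r1 or r2 gave 1 to 4 higher and 6 to 15 lower. The share of calls higher in r1 was 31.7%, but 7.41% with no scaling, which moved the median of all probe sets by −0.31. For m against r4 and r5, 1696 probe sets passed, with 927 under no filter, 1086 with no intensity trend, 989 by the plain analysis of variance, 2580 with the median over probe sets above the floor, 5507 with array weights, 4818 without r3, and 257 to 1913 with 1 array left out, fewest without m set 2. Where a setting was not one of fewer arrays or genes, the cause was not tested.

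With the set number as a replicate block, 15 probe sets were higher and 33 lower, and 30 of the 41 called genes passed. The 11 that did not, with adjusted p of 0.0509 to 0.0607, were ACAA1, CDH5, DMD, EN1, EPCAM, HBE, HHEX, NEFM, PDGFA, PPP1R3B and TTC39A. Deviations of same-numbered arrays correlated above 0.1 in 0 of 15 pairs of regions (0.05 for r1 and r2), so the numbers were not taken to pair the arrays. Whether same-numbered pools share a collection occasion is not given in the sources used here. HOXA2, CYP26C1, DRAXIN and PAX6 were called in 19 of 19 alternatives. No named gene changed sign. Of 43 uncalled genes followed through the alternatives, 38 passed with m, r1 and r2 alone, and 25 with r1 and r2 alone. Most of the 43 were named after their values were seen, so these counts say nothing about uncalled genes in general. Of all 10001 genes, 279 passed with m, r1 and r2 alone and 155 with r1 and r2 alone. DHRS3, EPHA3 and EPHA5 did not pass with r1 and r2 alone (limma adjusted p 0.0858, 0.117 and 0.0849). The fewest of the 41 genes were called by the plain analysis of variance (5) and without r2 set 1 (6).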
